A study of Mus musculus with 13 samples.

Results

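Dazl and Tex19.1 are germline genes that had at most 3 reads per library in control mouse embryonic fibroblasts (MEFs) and switched on when the cells were treated with 5-azacytidine (5-aza). These 2 genes were taken by name from a table of 25965 gene intervals, and they were chosen by their reads, near 0 without 5-aza and clearly present with it, so their rise with 5-aza is described here and not tested. Dazl (ENSMUSG00000010592) lies on the minus strand at chr17:50279394-50293599, and Tex19.1 (ENSMUSG00000039329) on the plus strand at chr11:121146143-121148319 (mm10, the build named in the submitters' processing notes). No other gene of the GENCODE annotation overlapped either interval.

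Dazl encodes an RNA-binding protein of the DAZ family, which in germ cells binds mRNAs and promotes their translation and is needed for germ cell development in both sexes. Tex19.1 is a mammal-specific gene of germ cells, pluripotent cells and placenta, and mice without it have defects of meiosis and of retrotransposon control. In somatic tissues the promoters of both genes are known to carry DNA methylation, which DNMT1 copies to the new strand at each division. The drug 5-aza is built into DNA, traps DNMT1 and so lowers methylation as cells divide. Setdb1 methylates lysine 9 of histone H3 (H3K9), chiefly at retrotransposons and at some germline genes. DNA methylation was not measured in these libraries.

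Poly(A) RNA was sequenced from primary MEFs of E13.5 embryos that carried a deletion of the Xist A repeat on one X (XistΔA) and the PGK X as the other, so these alleles were shared by the 4 hairpin groups. The cells received a retroviral hairpin and puromycin, 5-aza was added to a part of the cultures for 24 h from day 3, and all were harvested on day 7. There were 4 groups of 3 libraries: control hairpin, Setdb1 hairpin, control hairpin with 5-aza, and Setdb1 hairpin with 5-aza. Replicates A and B carried the non-silencing hairpin in the control groups and shSetdb1.4 in the Setdb1 groups, and replicate 1 carried a hairpin against luciferase or shSetdb1.6. The last of the 13 libraries had 5-aza and no named hairpin, carried the library name PGK and entered no comparison. Its protocol text is that of the others, but the study also speaks of a PGK sample for finding strain variants, so its genotype is unsure. Per the study, Setdb1 hairpins were given to cells with 1 gene-trap allele of Setdb1 (Setdb1 +/gt) and the non-silencing hairpin to wild-type cells, while the genotype of the luciferase cells was not stated, so hairpin and genotype cannot be told apart. No label says that replicates came from separate embryos, so p-values measure the spread between these libraries, which may be technical.

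Values are given as RPM, the reads of a gene per M reads of its library, from which whole reads were recovered in every library. Depth, as the values of single reads imply it, ran from 41.9 to 58.8 M reads per hairpin library and was 20.4 M without a named hairpin. A count of 0 allows up to 3 reads, which is 0.051 to 0.0716 RPM at the depth of the hairpin libraries. Setdb1 itself fell to 30.4% of the control mean with Setdb1 hairpins, from 46.1 to 46.4 RPM down to 12.1 to 15.4 RPM, and all 6 Setdb1 hairpin libraries lay below all 6 controls. All 10 fibroblast markers had reads in every library, and they summed to between 22727 and 34982 RPM in the hairpin libraries. In the group where both genes were highest, Setdb1 hairpin with 5-aza, that sum was 22727 to 28902 RPM, beside 23128 to 33894 RPM in controls with 5-aza and 27815 to 34982 RPM with the Setdb1 hairpin alone. The median log2 fold change of the 10 was -0.36 against controls with 5-aza, where Thy1 was called lower (-0.46, SE 0.13, adjusted p 0.0277). In that contrast 5.37% of all genes tested were called lower. The median was -0.20 against the Setdb1 hairpin alone, where Col1a1 (-0.73, adjusted p 0.0337) and Pdgfrb (-0.72, adjusted p 0.0146) were called lower and Vim higher (0.20, adjusted p 0.0152). There 21.4% of all genes tested were called higher, and the share called lower is not given here. Of 14 markers of early germ cells and pluripotent cells, 9 had 0 reads in all 13 libraries, among them Pou5f1, Dppa3, Prdm14, Sall4 and Lin28a. Their sum stayed between 0.692 and 1.16 RPM without 5-aza and between 0.786 and 0.947 RPM with it in the hairpin libraries. Nanog (at most 24 reads) and Dnd1 (at most 32 reads) made up most of it. Of 8 trophoblast markers, listed because Tex19.1 is also active in placenta, 4 were at 0 throughout (Elf5, Cdx2, Tpbpa and Gcm1). The sum of the 8 was 0.755 to 1.19 RPM without 5-aza and 0.56 to 1.83 RPM with it. Eomes had 9 to 65 reads per library and was not called in any contrast. Prl3d1 was at 0.0986 ± 0.0486 RPM in untreated controls and 0.359 ± 0.139 RPM with both treatments. The 8 markers of gonadal somatic cells summed to between 2.49 and 2.72 RPM without 5-aza and between 3.15 and 3.7 RPM with it, with Dmrt1 at 0. Inha was called higher with 5-aza in control cells (0.44 on the log2 scale, SE 0.13, adjusted p 0.0394). In that contrast 18.8% of all genes tested were called in either direction. The part of these marker lists in the levels below was not tested.

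The promoters are shown because the 2 genes were chosen as targets of DNA methylation and differ in how many CpG sites, its substrate, lie before their start sites. Beside them stand the promoters of Tex19.2, the paralogue of Tex19.1 on the same chromosome, and of Taf7l, an X-linked testis paralogue of the transcription factor subunit TAF7 with a pattern close to theirs. Each line gives the 250 bases before the RefSeq start site (GRCm38.p6), 5′ to 3′ on the strand of the gene, with every CpG in capitals. The windows are chr17:50293621-50293870 for Dazl (minus strand), chr11:121145893-121146142 for Tex19.1 (plus strand), chr11:121118678-121118927 for Tex19.2 (minus strand) and chrX:134476491-134476740 for Taf7l (minus strand).
Dazl: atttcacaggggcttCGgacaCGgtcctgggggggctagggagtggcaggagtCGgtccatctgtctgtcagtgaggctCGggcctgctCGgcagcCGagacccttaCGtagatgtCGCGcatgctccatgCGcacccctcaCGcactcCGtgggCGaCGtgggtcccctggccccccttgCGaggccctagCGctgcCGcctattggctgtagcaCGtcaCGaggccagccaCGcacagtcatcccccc
Tex19.1: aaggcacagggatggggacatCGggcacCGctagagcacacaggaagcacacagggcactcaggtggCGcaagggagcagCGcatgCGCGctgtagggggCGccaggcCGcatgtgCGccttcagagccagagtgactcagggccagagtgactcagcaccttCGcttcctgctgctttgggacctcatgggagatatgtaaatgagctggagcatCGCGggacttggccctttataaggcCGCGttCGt
Tex19.2: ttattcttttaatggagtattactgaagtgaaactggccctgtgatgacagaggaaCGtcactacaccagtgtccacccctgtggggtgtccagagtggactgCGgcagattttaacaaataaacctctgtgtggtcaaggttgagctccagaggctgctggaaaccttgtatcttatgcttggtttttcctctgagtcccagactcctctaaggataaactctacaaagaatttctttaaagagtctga
Taf7l: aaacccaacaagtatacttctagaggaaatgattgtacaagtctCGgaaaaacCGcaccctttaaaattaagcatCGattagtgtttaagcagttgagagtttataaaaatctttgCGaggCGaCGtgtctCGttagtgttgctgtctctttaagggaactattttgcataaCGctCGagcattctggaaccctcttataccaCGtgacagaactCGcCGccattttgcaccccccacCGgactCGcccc

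Over 300 bases, which add the first 50 of the transcript, the Dazl promoter held 28 CpG sites and was 68.7% G and C, more CpG than in 85.8% of the 32851 promoter windows of that table. Tex19.1 held 16 CpG sites, above 67% of windows, and Taf7l 17, above 68.6%. Tex19.2 held 2 CpG sites, above 14.1% of windows, and was 45.3% G and C. The median window held 7 CpG sites. Among 31 germline promoters with a sequence, of a list of 36 germline genes that are generally held to be methylated in somatic cells, the median was 19 CpG sites and the range 8 to 48. The letters TCCCGC or GCGGGA, the core bound by E2F factors, were searched on both strands. They occurred once in the Tex19.1 window and in no other of the 4, beside 20% of all windows and 15 of the 31 germline promoters. The palindrome CACGTG occurred once in the Taf7l window and in none of the other 3, beside 7.15% of all windows. These matches describe the letters in the windows only.

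Without 5-aza, Dazl was at the limit of detection in both hairpin groups. It had 1 read in non-silencing replicate A, 1 in non-silencing replicate B and 3 in the luciferase library. With the Setdb1 hairpin alone it had 0 reads in shSetdb1.4 replicate A, 3 in replicate B and 3 in the shSetdb1.6 library. Thus 0.0343 ± 0.0256 RPM (SD, n = 3) stood beside 0.0408 ± 0.0368 RPM, the groups overlapped, and a difference was not detectable at this depth. Since no library held more than 3 reads, no fold or test is given.

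With 5-aza, Dazl was read in every library. Control hairpin cells had 83, 77 and 93 reads (1.79, 1.43 and 1.93 RPM in non-silencing A, non-silencing B and luciferase). Setdb1 hairpin cells had 208, 174 and 179 reads (4.16, 3.46 and 3.43 RPM in shSetdb1.4 A, shSetdb1.4 B and shSetdb1.6). All 6 libraries thus lay far above the 6 without the drug. From summed reads, 5-aza raised Dazl 51.1-fold in control cells (95% counting interval 21.6 to 159) and 91-fold in Setdb1 hairpin cells (41.5 to 249). Both ratios rest on 5 and 6 reads without the drug, and without the luciferase library of the untreated controls the first was 87.7-fold. Because PCR copies were not marked, intervals and limits here describe counting error alone. RNA from bulk cultures cannot tell more cells with the transcript from more transcript per cell.

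The level of Dazl under 5-aza was higher with the Setdb1 hairpin than with the control hairpin, at 3.69 ± 0.412 against 1.72 ± 0.255 RPM, and all 3 Setdb1 libraries lay above all 3 controls. Such separation in this direction was seen for 24.6% of the 13134 tested genes. The ratio of summed reads was 2.16 (95% counting interval 1.86 to 2.52). The limma fit over all 12 libraries put it at 1.11 on the log2 scale (SE 0.51), and its adjusted p of 0.147 did not pass the threshold of 0.05. With only the 2 groups with 5-aza in the fit the same log2 fold change had an SE of 0.14 and an adjusted p of 0.00445, and 8.51% of genes were called higher there. With voom, which weights each value by its read count, the adjusted p was 0.0172. The size of the difference was alike in these fits, while the call was not.

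Tex19.1 showed a step that Dazl did not, since it also appeared with the Setdb1 hairpin alone. Without 5-aza it had 0 reads in each of the 3 control libraries, and 9, 17 and 11 reads in shSetdb1.4 A, shSetdb1.4 B and shSetdb1.6 (0.189, 0.289 and 0.262 RPM). Every Setdb1 library was thus above the 3 reads that a count of 0 allows. Against that limit in each control library, the mean of 0.247 ± 0.0515 RPM was at least 4.08-fold higher. In limma the difference was 3.75 on the log2 scale (SE 0.28, adjusted p 5.89e-06, higher in 3 of 3 libraries), a size set by the value the table gives to 0 reads. Of all genes tested, 9.01% were called higher in this contrast. Reads near 0 without 5-aza were part of why the gene was chosen, so the control side of this test was set by that choice.

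Treatment with 5-aza alone gave Tex19.1 levels in the same range. Control hairpin cells with 5-aza had 14, 14 and 19 reads (0.301, 0.261 and 0.394 RPM in non-silencing A, non-silencing B and luciferase), at least 5.27-fold above the limit in the untreated controls. These values overlapped with those of the Setdb1 hairpin alone. The highest levels came with both, where 78, 85 and 118 reads were found (1.56, 1.69 and 2.26 RPM in shSetdb1.4 A, shSetdb1.4 B and shSetdb1.6). That is at least 30.4-fold above the limit in untreated controls and 7.39-fold above the Setdb1 hairpin alone (95% counting interval 5.23 to 10.7). The order of the 4 groups was therefore control at 0, then Setdb1 hairpin and control with 5-aza side by side, then Setdb1 hairpin with 5-aza.

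Under 5-aza, Tex19.1 was at 1.84 ± 0.373 RPM with the Setdb1 hairpin and 0.319 ± 0.0683 RPM with the control hairpin. The ratio of summed reads was 5.82 (95% counting interval 4.26 to 8.11), and the limma log2 fold change 2.53 (SE 0.28, adjusted p 0.000124, higher in 3 of 3 libraries). In this contrast 14.5% of genes tested were called higher. Tex19.1 passed the filter of 1 RPM in 3 libraries through the 3 Setdb1 libraries with 5-aza alone, so it had to be high there. With no filter on low values it was still called (adjusted p 9.69e-05). It was also called in the rest of the 20 alternatives, which kept that filter and so do not bear on this limit. Over all 20 the adjusted p ran from 9.62e-06 to 0.00151.

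**Figure D1:**
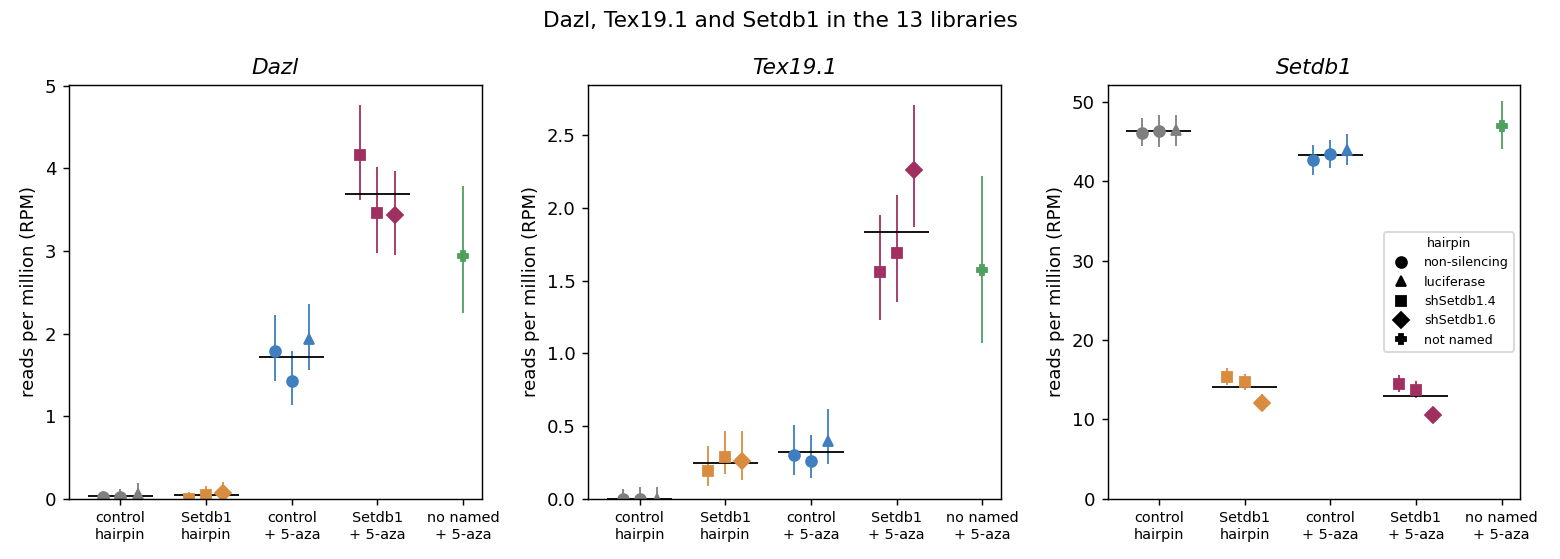
RPM (y axes, linear from 0) of Dazl, Tex19.1 and Setdb1 in the 4 hairpin groups and the library with no named hairpin (x axes), with 1 point per library, shapes for the hairpin, bars for the exact 95% Poisson interval of the reads and black lines for group means (n = 3). Dazl is at most 0.0716 RPM in the 6 libraries without 5-aza and at least 1.43 RPM in those with it, while Tex19.1 also has 0.189 to 0.289 RPM with the Setdb1 hairpin alone, where Setdb1 is at 12.1 to 15.4 RPM.

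On the linear scale both genes gained more RPM from 5-aza in cells with the Setdb1 hairpin, between libraries of the same hairpin and, where given, replicate letter. Dazl gained 3.65 ± 0.448 RPM in the 3 Setdb1 pairs and 1.68 ± 0.239 RPM in the 3 control pairs. Tex19.1 gained 1.37, 1.4 and 2 RPM in the Setdb1 pairs and 0.301, 0.261 and 0.394 RPM in the control pairs. Neither gene had overlapping gains. With so few reads without 5-aza, the gains largely repeat the levels with 5-aza, whose separation was seen for 24.6% of the 13134 tested genes. The share of all genes whose gains do not overlap was not computed, so the separation is not read as a result about these 2 genes. An exact two-sided permutation test gave p = 0.1 for each, and 0.1 after adjustment over 3 such tests. This is the smallest p that 3 against 3 can give. Because both genes were chosen for their rise with 5-aza and no lower p was possible, no conclusion is drawn from the test. The sum of the differences from control made by the hairpin alone and by 5-aza alone was 0.566 RPM for Tex19.1, and both together made 1.84 RPM, 3.25 times that sum. For Dazl the sum was 1.69 RPM and both together made 3.65 RPM, 2.16 times the sum.

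On the log scale the same question has no stable answer for Tex19.1. The interaction of hairpin and 5-aza was -1.22 (SE 0.39, adjusted p 0.692) on the deposited log2 values, in which 0 reads stand as 0.9 read. With log2(RPM + 1) it was 0.78 (adjusted p 0.0142), and with voom -2.16 (adjusted p 0.0222). Its sign thus differed between scales, and the 3 untreated controls at 0 reads enter each of them. For Dazl it was 0.61 (SE 0.73, adjusted p 0.831), and it was 0.04 without the untreated luciferase library. Of all genes tested, 0.388% passed in the interaction. The levels with and without 5-aza had entered the choice of both genes, and the contrasts share libraries.

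The balance between the 2 genes differed with the hairpin. Under 5-aza, Tex19.1 made up 14.4%, 15.4% and 17% of their joint reads in non-silencing A, non-silencing B and luciferase. It made up 27.3%, 32.8% and 39.7% in shSetdb1.4 A, shSetdb1.4 B and shSetdb1.6, with 95% Wilson intervals of 22.4 to 32.7%, 27.4 to 38.8% and 34.3 to 45.4%. The groups did not overlap, at 33.3 ± 6.24% against 15.6 ± 1.28%, a difference of 17.7 percentage points (exact two-sided permutation p = 0.1, the smallest possible). Per exon length, taken over the 3820 bases of Dazl and the 1872 bases of Tex19.1, control cells with 5-aza had 0.449 ± 0.0667 RPM per kb of Dazl and 0.17 ± 0.0365 of Tex19.1. Setdb1 hairpin cells with 5-aza had 0.965 ± 0.108 and 0.982 ± 0.199 RPM per kb, so that the 2 genes overlapped there. These are low levels among expressed genes, since in Setdb1 hairpin cells with 5-aza Dazl ranked above 13.3 to 15.6% of the 12987 tested genes with a known exon length, and Tex19.1 above 12.1 to 17.4%.

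**Figure D2:**
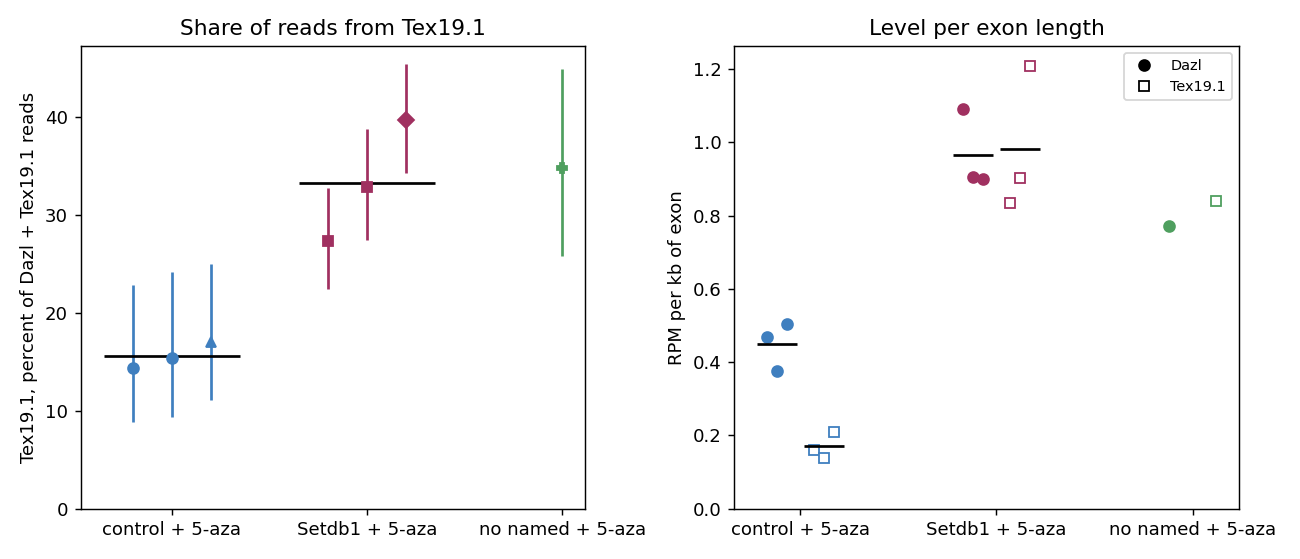
Left, the percent of Dazl and Tex19.1 reads that came from Tex19.1 in the 7 libraries with 5-aza (bars, 95% Wilson intervals, black lines, group means). Right, RPM per kb of exon for Dazl (filled circles) and Tex19.1 (open squares), with Tex19.1 below Dazl in control cells (0.17 against 0.449 on average) and level with it in Setdb1 hairpin cells (0.982 against 0.965).

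The libraries of the 2 Setdb1 hairpins with 5-aza were set side by side. The shSetdb1.6 library with 5-aza had the least Setdb1 (10.5 RPM, beside 14.5 and 13.7 RPM with shSetdb1.4) and the most Tex19.1 (2.26 RPM). Its Dazl level of 3.43 RPM (95% Poisson interval 2.95 to 3.97) was near the 3.46 RPM of shSetdb1.4 B (2.97 to 4.02). In shSetdb1.4 A Dazl was at 4.16 RPM (3.61 to 4.77). The intervals overlapped, so no order of the hairpins is read for Dazl. With 1 library for shSetdb1.6 per condition, this has no replicate check.

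Relatives and partners of the 2 proteins were next. Tex19.2 lies 27465 bases from Tex19.1 (chr11:121116215-121118677) and is also a germline gene. It had 0 reads in each of the 6 libraries without 5-aza, 0, 1 and 0 reads in control cells with 5-aza, and 5, 7 and 6 reads in Setdb1 hairpin cells with 5-aza. Only the last group was above the 3 reads that a count of 0 allows. Reads could be shared, since 6.31% of the 31-base words of Tex19.1 transcripts also occurred in Tex19.2, while none of the words of Dazl occurred in another gene. Boll, the other autosomal DAZ relative, had at most 4 reads in any hairpin library. Dazap1, Dazap2, Pabpc1, Pum2, Ubr2 and Sycp3, known partners or mRNA targets, passed the filter. Of these 6, 1 was called in any of the 4 contrasts, which was Dazap2 with 5-aza in Setdb1 hairpin cells (0.17 on the log2 scale, SE 0.03, adjusted p 0.00267), where 21.4% of all genes tested were called higher. Sycp3, a synaptonemal complex gene, had log2 fold changes of 0.49 and 0.52 with the Setdb1 hairpin without and with 5-aza (adjusted p 0.103 and 0.0632). Ddx4, the germ cell RNA helicase, did not pass the filter and had 9 to 10 reads per library with the Setdb1 hairpin alone, 17 to 26 with both treatments and at most 4 in untreated controls.

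The expressed genes on either side did not switch with the 2 genes. Dazl stands alone, with its nearest neighbours 37.9 kb (AY702103) and 88.7 kb (Rftn1, a lipid raft protein gene) away on one side and 216 kb (Plcl2) on the other. AY702103 and Gm16554 had no reads in any library. Rftn1 was at 40.6 ± 0.164 RPM in untreated controls and 35.4 ± 0.399 RPM with 5-aza. That is -0.20 on the log2 scale (SE 0.05, adjusted p 0.0161), the direction in which 5.34% of tested genes were called and against that of Dazl. Plcl2 was higher with the Setdb1 hairpin by 0.39 without 5-aza (SE 0.11, adjusted p 0.0386) and 0.43 with it (SE 0.11, adjusted p 0.0176) on the log2 scale, calls that were lost in 10 and 3 of 20 alternatives. Gm7334 was higher with 5-aza in control cells by 0.33 (SE 0.08, adjusted p 0.0197), and Tbc1d5 was not called in any of the 4 contrasts.

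Around Tex19.1, the silent neighbours stayed at or near 0. Gm11791 had no reads, and Uts2r, a receptor gene 12 kb away, had at most 2 reads in any library. Sectm1a, 64.9 kb away, had 0 reads in the 6 libraries without 5-aza, 1 to 4 in control cells with 5-aza and 4 to 7 in Setdb1 hairpin cells with 5-aza. In the library with no named hairpin it had 8 reads. The expressed gene 1110031I02Rik, 29.3 kb away, was at 1.48 ± 0.0384 RPM in untreated controls and 2.02 ± 0.299 RPM with the Setdb1 hairpin, a difference of 0.44 on the log2 scale (SE 0.12, adjusted p 0.0389) that lost its call in 9 of 20 alternatives. Under 5-aza its log2 fold change was -0.02 (adjusted p 0.93), in the contrast where Tex19.1 was called. Hexdc was not called in any of the 4 contrasts.

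**Figure D3:**
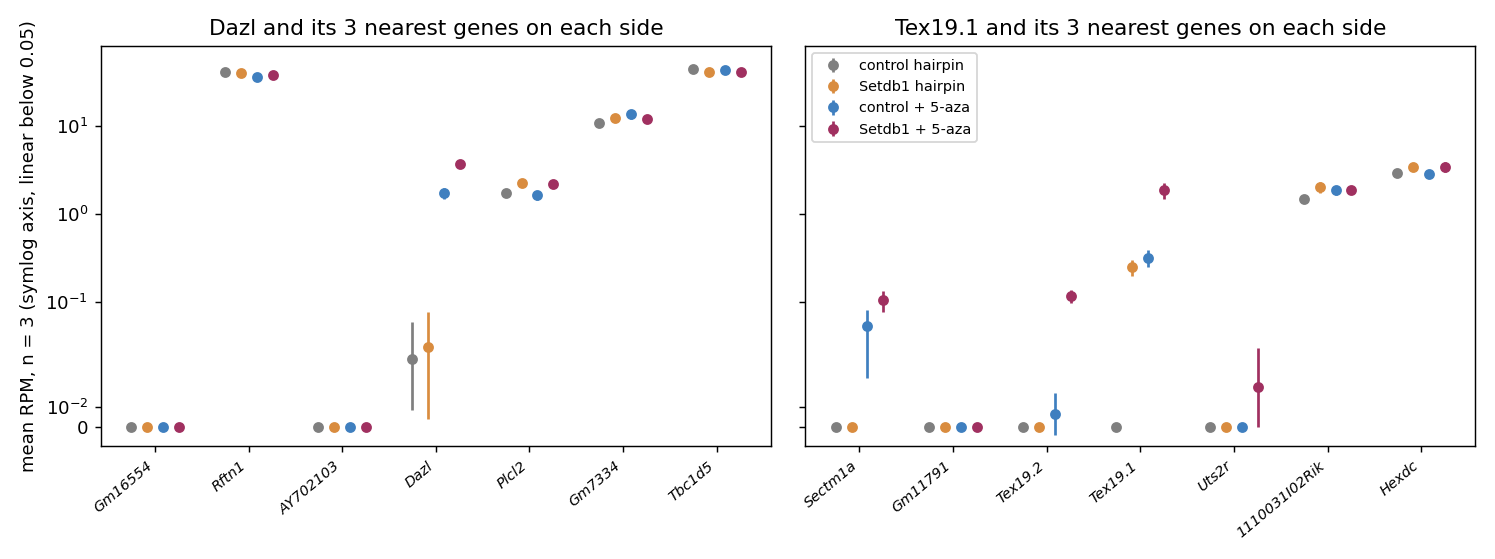
Mean RPM (y axis, symlog, linear below 0.05, bars SD, n = 3) of Dazl, Tex19.1 and the 3 nearest gene intervals on each side of each (x axis, in chromosomal order), in the 4 hairpin groups. Around Dazl no neighbour rises with 5-aza as it does, and near Tex19.1 low reads with 5-aza appear in Sectm1a and Tex19.2, the latter at 0.118 RPM with both treatments.

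In the list of other germline genes, 2 had the pattern of Dazl and none met the full read limits of the Tex19.1 pattern, though Tdrd9 came close. Of the 36 listed genes 35 were in the table, and 19 of them had at most 3 reads in each untreated control library. Of the 35 genes, 7 stayed at or below 3 reads in each of the 12 hairpin libraries (Sycp1, Hormad1, Spo11, Mei1, Rpl10l, Tex101 and Dpep3). The pattern of Dazl, at most 3 reads in each library without 5-aza and more than 3 in each library with it, was shared by Taf7l and Tuba3b. The pattern of Tex19.1, at most 3 reads in untreated controls and more than 3 in every other library, was found in 0 of the 35. That count depends on the limit of 3 reads. Tdrd9 had 4 reads in each untreated control, 48 to 53 with the Setdb1 hairpin alone, 8 to 21 with 5-aza in control cells and 76 to 100 with both. Stk31 had 0, 18 to 21, 1 to 6 and 30 to 37 reads in the same order of groups. Mael, a piRNA factor, had more than 3 reads in each of the 6 Setdb1 hairpin libraries and 0 in the 6 controls. Mov10l1, a piRNA helicase, did so only with both treatments (6 to 10 reads).

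Taf7l came nearest to Dazl in this list. It had 0 reads in the 3 untreated controls and 0, 1 and 0 with the Setdb1 hairpin alone. With 5-aza it had 12, 14 and 10 reads in control cells and 35, 42 and 60 reads in Setdb1 hairpin cells, 0.242 ± 0.0302 and 0.896 ± 0.231 RPM. The ratio of summed reads was 3.71 (95% counting interval 2.55 to 5.51), between those of Dazl (2.16) and Tex19.1 (5.82) in the same comparison. As with both of them, the Setdb1 libraries with 5-aza lay above the control libraries with 5-aza. Such separation was seen for 24.6% of the 13134 tested genes and for 17 of the 35 listed genes, so it does not set Taf7l apart. Tuba3b, a testis tubulin gene, had 43.1% of its 31-base words in other genes, so its 4 to 15 reads per library with 5-aza are uncertain.

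Few genes of the list were abundant enough for the fit. Of the 5 that passed the filter (Stag3, Tdrd9, Tex15, Tex11 and Sycp3), 4 were called higher with the Setdb1 hairpin without 5-aza and the same 4 with it, beside 9.01% and 14.5% of all genes tested, with a median log2 fold change of 1.58 and 2.06 beside 0.03 and 0.05 over all genes. Passing the filter favours genes that are high in some group, so these counts describe the 5 only. Tex15, a factor of piRNA-directed silencing, was at 5.59 ± 0.802 RPM in untreated controls, 16.1 ± 1.17 with the Setdb1 hairpin, 5.84 ± 0.451 with 5-aza and 18.1 ± 1.96 with both. Its level thus followed the hairpin (1.53 on the log2 scale without 5-aza, SE 0.11, adjusted p 3.69e-06), and with 5-aza in control cells its log2 fold change was 0.07 (adjusted p 0.687). Tex11, a meiotic crossover gene on the X, had at most 4 reads in untreated controls and at least 46 reads in each Setdb1 hairpin library. With 5-aza in control cells, where 18.8% of all genes tested were called in either direction, Stag3, a meiotic cohesin gene (log2 fold change 0.33, SE 0.10, adjusted p 0.0438), and Tdrd9, a piRNA helicase gene (1.67, SE 0.31, adjusted p 0.00395), were called. The call of Stag3 was lost in 15 of 20 alternatives.

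Without a filter on low values, 34 listed genes could be tested. With the Setdb1 hairpin 8 of them were called higher without 5-aza, beside 5.73% of all genes, and 15 with 5-aza, beside 9.71%. In the latter contrast 1 more was called lower. With 5-aza, 5 were called higher in control cells, beside 9.23% of all genes, and 9 in Setdb1 hairpin cells, beside 14.5%. The 5 were Asz1, Taf7l, Tdrd9, Tuba3a and Tuba3b, of which Asz1 had at most 4 reads in any control library with 5-aza.

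**Figure D4:**
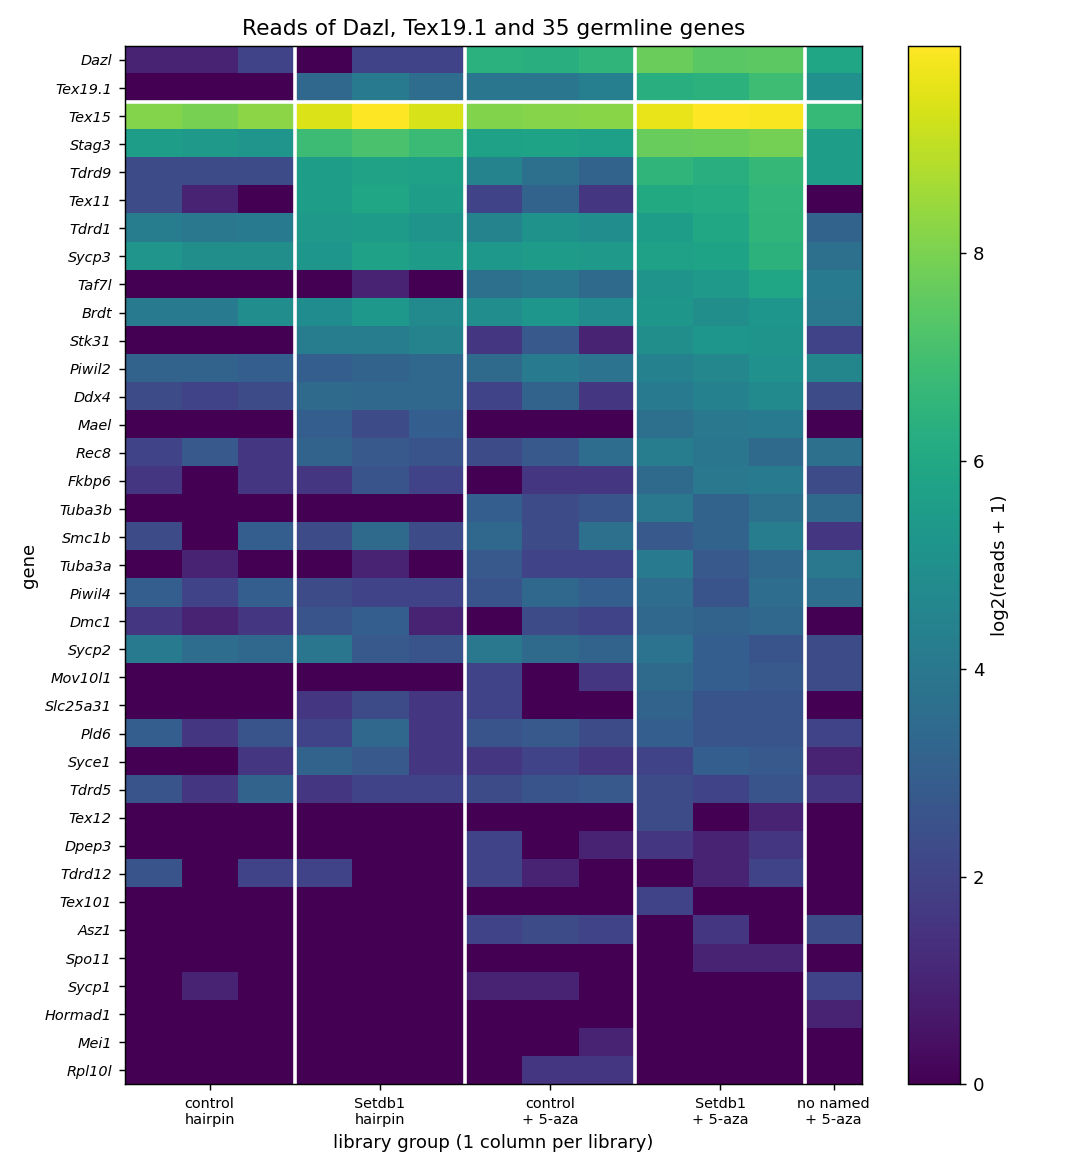
Reads per library as log2(reads + 1) for Dazl and Tex19.1 (upper 2 rows) and the 35 germline genes of the list (rows, ordered by reads in Setdb1 hairpin cells with 5-aza), with 1 column per library in 4 groups of 3 and the library with no named hairpin at the right. Dazl and Taf7l have at most 3 reads in each of the 6 columns without 5-aza, and Tex11 has at least 46 in each Setdb1 hairpin column. Mael has reads only in the Setdb1 hairpin columns, 4 to 7 without 5-aza and 12 to 16 with it, and 7 genes stay at or below 3 reads throughout the 12 hairpin columns.

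Over the whole table, the on-off pattern of Dazl was rare. Of the 25965 intervals, 9378 had at most 3 reads in each of the 6 libraries without 5-aza, and 20 of these had more than 3 in each of the 6 with it. At 20 or more reads in each library with 5-aza, 4 were left, namely Dazl, Cntn3 (a neuronal adhesion gene), Slc47a1 (a cation exporter gene) and Pet2 on the X. Just below that limit lay Cdh19, with 15 reads in its lowest library with 5-aza. Of the 4, Dazl had the most reads and was the only one whose 2 groups with 5-aza did not overlap in the direction of the Setdb1 hairpin. Such separation was seen for 24.6% of the 13134 tested genes, so it does not set Dazl apart. Cntn3 was at 0.774 ± 0.0777 RPM in control cells with 5-aza and 0.538 ± 0.0671 RPM in Setdb1 hairpin cells with 5-aza, and Pet2 at 0.754 ± 0.00852 and 0.741 ± 0.0761 RPM. Slc47a1 was at 0.657 ± 0.245 and 0.914 ± 0.248 RPM. The pattern of Tex19.1 was found in 11 intervals, among them Krt8, a keratin gene of simple epithelia, Wnt10a, a Wnt ligand gene, and Mgst2.

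The genes whose log2 RPM followed Dazl most closely over the 12 hairpin libraries, each centred on its mean, were Gm10800 (root mean square difference 0.63), AC242409.1 (0.82), Krt8 (1.74), Apob (1.79) and Rhox5 (1.80). Gm10800 went from at most 38 reads in any library without 5-aza to at least 1049 with it, and 42% of its 31-base words occurred in other genes, so its reads may belong to several loci. For Tex19.1 the nearest were Krt8 (0.68), Angptl7 (0.72), Got1l1 (0.77), Prl2c2 (0.93) and Rhox5 (0.98). Krt8 had 1 read in each untreated control, 0.319 ± 0.125 RPM with the Setdb1 hairpin, 0.861 ± 0.0519 RPM with 5-aza and 2.3 ± 0.509 RPM with both. Rhox5, a homeobox gene of the reproductive tract on the X, was in both sets of 5, at 0.197 ± 0.0484, 0.66 ± 0.0567, 1.88 ± 0.554 and 4.22 ± 0.657 RPM in the same order of groups. Between Dazl and Tex19.1 the difference was 1.90, which placed Tex19.1 at rank 8 for Dazl and Dazl at rank 125 for Tex19.1. The points of these measures share libraries and the value given to 0 reads.

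Factors of DNA methylation and of a Polycomb complex linked to germline promoters were also compared. Of 13 writers, readers and erasers of DNA methylation 12 passed the filter, and 3 were called higher with the Setdb1 hairpin both without and with 5-aza, beside 9.01% and 14.5% of all genes tested, with a median log2 fold change of 0.09 and -0.02 beside 0.03 and 0.05 over all genes. These were Dnmt1, its cofactor Uhrf1 and the methyl-CpG reader Mbd1. Dnmt1 was at 98.9 to 119 RPM with the Setdb1 hairpin and 82.8 to 85.4 RPM in untreated controls, a rise of 0.36 on the log2 scale (SE 0.07, adjusted p 0.00491). With 5-aza in control cells Dnmt1 was at 71 to 75.6 RPM (-0.20 on the log2 scale, SE 0.07, adjusted p 0.0483, lost in 10 of 21 alternatives) and Uhrf1 was lower by 0.42 on the log2 scale (SE 0.10, adjusted p 0.0148). There 5.34% of all genes tested were called lower. With 5-aza in Setdb1 hairpin cells Dnmt3b (-0.73, SE 0.15, adjusted p 0.00471) and Tet3 (-0.28, SE 0.09, adjusted p 0.0386) were called lower. The share of all genes called lower in that contrast is not given here. All 14 listed subunits of the variant Polycomb complex that contains E2F6 and MGA, a repressor of germline promoters, passed the filter. Beside the same 9.01% and 14.5% of all genes, with the Setdb1 hairpin 4 were called higher without 5-aza (Cbx3, Hdac1, Mga and Tfdp1), while with 5-aza 5 were called higher (Hdac1, Mga, Pcgf6, Tfdp1 and Wdr5) and Rybp was called lower (-0.24 on the log2 scale, SE 0.05, adjusted p 0.00691), as were 5.37% of all genes tested. Mga itself rose by 0.22 and 0.25 on the log2 scale (SE 0.06 each, adjusted p 0.0327 and 0.012). Changing one choice or leaving out one library at a time, these calls of Mga, Pcgf6 and Tfdp1 were lost in up to 5, 5 and 7 of 21 alternatives. With 5-aza in control cells the median of the 14 was -0.04 beside 0.04 over all genes.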

How the data were processed

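The table holds log2 RPM per gene and library for 13 libraries, as deposited. How the authors made it is not given in the sources used here beyond the build mm10 and CASAVA 1.4 in the submitters' processing notes, so the reads counted per gene and the treatment of reads with several matches are unknown. The library kit does not mark strand. Within a library 100% of the values above the lowest were whole multiples of 1 read (relative tolerance 1e-05), and the lowest stood for 0.9 read, so reads and RPM were recovered. The fit took the 13134 genes that reached 1 RPM in 3 or more hairpin libraries and used limma 3.58.1 under R 4.3.3 (4 group means, eBayes with trend, two-sided, Benjamini-Hochberg over all genes tested, threshold 0.05), which was checked on simulated data. SE is the standard error of the fit. Folds against groups at 0 used 3 reads per library. Exon lengths came from GENCODE M21 (GRCm38), in which 96.4% of gene IDs were found, and promoters from RefSeq. The text names both genes, list genes called or fitting a pattern, 3 neighbours on each side and the 5 nearest patterns. Sohlh2, Gtsf1, Tex13, Wnt10a, Mgst2, Cdh19 and others named from read patterns were chosen after their values were seen. The 2 genes, the lists and the tests were chosen with earlier results of these data known. Gains with 5-aza were taken between libraries whose titles share the hairpin and any replicate letter, which name no shared culture. Deviations of such libraries from their group means correlated at 0.413 to 0.634 in Setdb1 hairpin cells and 0.0999 to 0.586 in control cells, so the numbers were taken to pair the former only, as a hint from the data. The means of the gains do not depend on the pairing. Exact tests and plots used Python 3.11.15 with scipy 1.17.1 and matplotlib 3.10.9.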

Additional observations from a re-analysis of the deposited data

Results flagged for a closer look

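The 5-aza library without a named hairpin stood outside the comparisons and showed both genes. Dazl was at 2.94 RPM (60 reads, 95% Poisson interval 2.25 to 3.79) and Tex19.1 at 1.57 RPM (32 reads, 1.07 to 2.22), both above the untreated controls, which had at most 0.0638 RPM of Dazl and 0 reads of Tex19.1. Tex19.1 lay above the 3 control libraries with 5-aza (at most 0.394 RPM) and within the range with the Setdb1 hairpin and 5-aza. Setdb1 was at 47 RPM in this library. Its library name is PGK, the name the study gives to the strain of the other X, and its genotype may differ from that of the hairpin cells, so hairpin and genotype cannot be told apart in these differences. The share of Tex19.1 in their joint reads was 34.8% (95% Wilson interval 25.8 to 44.9%). Other genes that switched on with 5-aza were also high there, with Cntn3 at 1.82 RPM, Slc47a1 at 2.85 RPM, Pet2 at 2.06 RPM and Taf7l at 0.785 RPM. Of the listed genes that were higher with the Setdb1 hairpin, Tdrd9 and Stag3 were each at 2.35 RPM there, above their means in control cells with 5-aza (0.28 and 1.04 RPM). Tex15 was at 5 RPM, beside 5.84 RPM in those cells, Stk31 had 3 reads (0.147 RPM), and Tex11 and Mael had 0 reads. With 1 library, none of this was tested.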

How the results depend on the processing

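For Tex19.1 the Setdb1 hairpin differences without and with 5-aza kept direction and call in all 20 alternatives each. Its reads near 0 in untreated controls were part of its choice, and it passed the filter only through the 3 Setdb1 libraries with 5-aza. The alternatives reuse these values, so they show only how little the calls hinge on the processing. For Dazl with 5-aza the direction was kept in all 20, and the difference passed the threshold in 5: 1.06 with log2(RPM + 0.1), 0.79 with log2(RPM + 1), 1.07 with quantile normalization, and 1.11 each with only the 2 groups in the fit and with voom on recovered reads. Without each replicate in turn it was 0.98 to 1.20 (adjusted p 0.0786 to 0.308). The Tex19.1 interaction turned to 0.42 with log2(RPM + 0.1), 0.78 with log2(RPM + 1) and 0.62 with quantile normalization, and was -2.16 with voom. The Dazl interaction passed with log2(RPM + 1) at 0.78 and with quantile normalization at 2.51. With a limit of 1 read in place of 3, Tex19.1 rose at least 15.8-fold in control cells. No test was made for Dazl between hairpins without 5-aza, and neither gene passed the filter of at least 5 RPM.

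Counts of listed germline genes called moved with 5-aza in control cells from 2 to 0 with log2(RPM + 1), with quantile normalization and with at least 5 RPM, to 1 with median centring, only the 2 groups in the fit or voom, to 5 without the filter, and 1 to 2 without each replicate. With 5-aza in Setdb1 hairpin cells, 1 became 2 with log2(RPM + 0.1), voom or the replicate block, 3 with log2(RPM + 1) or only the 2 groups, 9 without the filter, 0 with at least 5 RPM and 1 to 2 without each replicate. Between hairpins, 4 became 8 and 16 without the filter, and 1 and 1 with at least 5 RPM, and with 5-aza it became 5 with the replicate block and 4 to 5 without each replicate. These filters change how many of the genes are tested (34 and 1). The replicate block changed no call of the 2 genes. With it all 5 tested genes of the list were called between hairpins with 5-aza, so Sycp3 gained a call. Leaving out each replicate, added after seeing the data, gave 14.5 to 20.7 points for the share of Tex19.1, and 1.71 to 2.11 and 1.07 to 1.38 RPM for the differences in gain of Dazl and Tex19.1. Of 702 alternative values for other named genes, 619 kept direction and call, 83 lost the call and 0 reversed.

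Depth limits values under 0.0716 RPM, where 3 reads or fewer were seen.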

Other observations

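Among all intervals, 17 had more than 3 reads in each Setdb1 hairpin library with 5-aza and at most 3 in each library of the other 3 groups. Besides Tex19.2 and Mov10l1 they held Gtsf1, a germline piRNA factor gene, which had at most 1 read without 5-aza, at most 2 with 5-aza in control cells and 0.356 ± 0.0927 RPM with both treatments (SD, n = 3). Another 13 had more than 3 reads in each of the 6 Setdb1 hairpin libraries and at most 3 in each of the 6 controls, with Mael and Pnma5, an X-linked gene of the paraneoplastic antigen family, among them. Pnma5 was at 0.321 ± 0.0914 RPM with the Setdb1 hairpin and 0.32 ± 0.113 RPM with both treatments, and had 0 reads in the 6 controls.

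Of the 20 intervals with the pattern of Dazl, 7 had all 3 Setdb1 libraries with 5-aza above all 3 controls with 5-aza, as did 24.6% of the 13134 genes tested. Sohlh2, a germ cell transcription factor gene, was among the 20 and stood at 0.191 ± 0.0767 RPM in control cells with 5-aza, 0.17 ± 0.0786 RPM in Setdb1 hairpin cells with 5-aza and 1.52 RPM in the library with no named hairpin. Tex13, an X-linked testis gene, had 4 to 6 reads in control cells with 5-aza and 0 in each library without it.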
